A study of Mus musculus with 8 samples.

Results

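The bile acid synthesis enzymes are 10 liver genes that turn cholesterol into conjugated bile acids: Cyp7a1, Cyp8b1, Cyp27a1, Cyp7b1, Cyp39a1, Hsd3b7, Akr1d1, Acox2, Slc27a5 and Baat. They were taken by gene name from a table of 27110 genes, in which each name occurred, and the read counts of 8 liver libraries were used. The libraries were made from total RNA of mouse livers labelled week 7, with the cell types given as hepatocytes and cholangiocytes and with the treatment entry NT, which the labels do not expand. The 4 LKO libraries (replicates 3, 4, 12 and 13, all female) come from livers with a liver-restricted deletion of Pkd1l1, a polycystin-family gene and a candidate gene for biliary atresia. The 4 Fl/Fl libraries come from floxed controls, of which replicates 5, 7 and 9 are female and replicate 10 is male. The labels name neither the Cre driver of the deletion nor the litters nor the hour of collection, and they do not say what week 7 is counted from.

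Bile acids are made in hepatocytes, which secrete them into the bile canaliculi, and the bile ducts carry them to the gut, where they dissolve dietary fat. The classic route starts with Cyp7a1, the rate-limiting enzyme, and the alternative route starts with oxidation of the cholesterol side chain by Cyp27a1 in mitochondria. The ring is then modified, the side chain is shortened in peroxisomes, and the product is joined to an amino acid, which in mice is mainly taurine. Bile acids repress their own synthesis through the nuclear receptor FXR (Nr1h4) and its target SHP (Nr0b2) in the liver and through FGF15 from the ileum, which acts on Fgfr4 and its coreceptor Klb.

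The libraries held 71491723 to 76622375 reads in genes. Levels within a gene are given below as CPM, the gene's share of the reads after scaling of the library sizes by edgeR's TMM method, and 3 reads in a library correspond to 0.0385 to 0.0428 CPM. Genes were tested with edgeR's quasi-likelihood F test over all 8 libraries with terms for genotype and sex, so that the genotype contrast sets the 4 LKO livers against the 3 female Fl/Fl livers, and p-values were Benjamini-Hochberg adjusted over 16420 genes. Pkd1l1 itself gave 0, 0, 0 and 2 reads in LKO 3, 4, 12 and 13, against 0, 1 and 1 reads in Fl/Fl 5, 7 and 9 and 0 in male Fl/Fl 10, so its reads do not check the genotype labels. Markers of hepatocytes were abundant in every library, with a summed level of 132100 to 145500 CPM over 12 genes in LKO livers, 135200 to 148200 CPM in female Fl/Fl livers and 99200 CPM in the male liver. Alb made up most of this sum, at 55810 CPM in the male liver and 102100 to 109300 CPM in female Fl/Fl livers. Against female Fl/Fl livers, the male median of the 12 was 0.295 log2. There edgeR called 3 of the 12 higher and only Alb lower, where 3.14% and 2.36% of all tested genes were called. The 12 cholangiocyte markers, 11 of them tested, were scarce beside the hepatocyte markers. Their sum was 249.3 to 298.7 CPM in LKO livers, 281.6 to 325.8 CPM in female Fl/Fl livers and 279.6 CPM in the male liver. The defining cholangiocyte marker Krt19 averaged 1.93 ± 0.43 CPM in LKO livers (SD, n = 4) and 2.03 ± 0.27 CPM in female Fl/Fl livers (SD, n = 3). Separate litters or days of preparation are not given, and p-values here measure only the spread between the samples given, which may be technical. In bulk liver RNA, fewer cells of a type and less RNA per cell cannot be told apart.

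None of the 9 enzymes with enough reads to be tested passed an adjusted p of 0.05 between LKO and female Fl/Fl livers, where 232 of the 16420 tested genes did (1.41%; 1.02% higher and 0.396% lower in LKO). The estimates were positive for 8 enzymes and negative for Cyp7b1, where 49.5% of all tested genes were positive. Their median log2 fold change was 0.12, against -0.0032 over all tested genes. The count and the median depended on single control livers: without Fl/Fl 9, 3 of the 9 were positive with a median of -0.020 log2, and without both Fl/Fl 5 and Fl/Fl 7, 8 were positive with a median of 0.56 log2. At an unadjusted p under 0.05, the same edgeR test called 3 of the 9, namely Cyp27a1, Cyp7b1 and Acox2, where the share over all tested genes was 16.1%. The LKO and female Fl/Fl values did not overlap for 2 of the 9, Cyp27a1 and Acox2, both higher in LKO, and the share of tested genes without overlap was 15.1% (8.85% higher and 6.22% lower in LKO). DESeq2, run in place of edgeR with the same terms, called 2 of the 9: Cyp27a1 (adjusted p = 0.024) and Cyp7b1 (adjusted p = 0.035), and it called 885 of all genes. The tenth enzyme, Hsd3b7, did not reach the filter on low counts and is described with the ring-modifying enzymes.

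**Figure D1:**
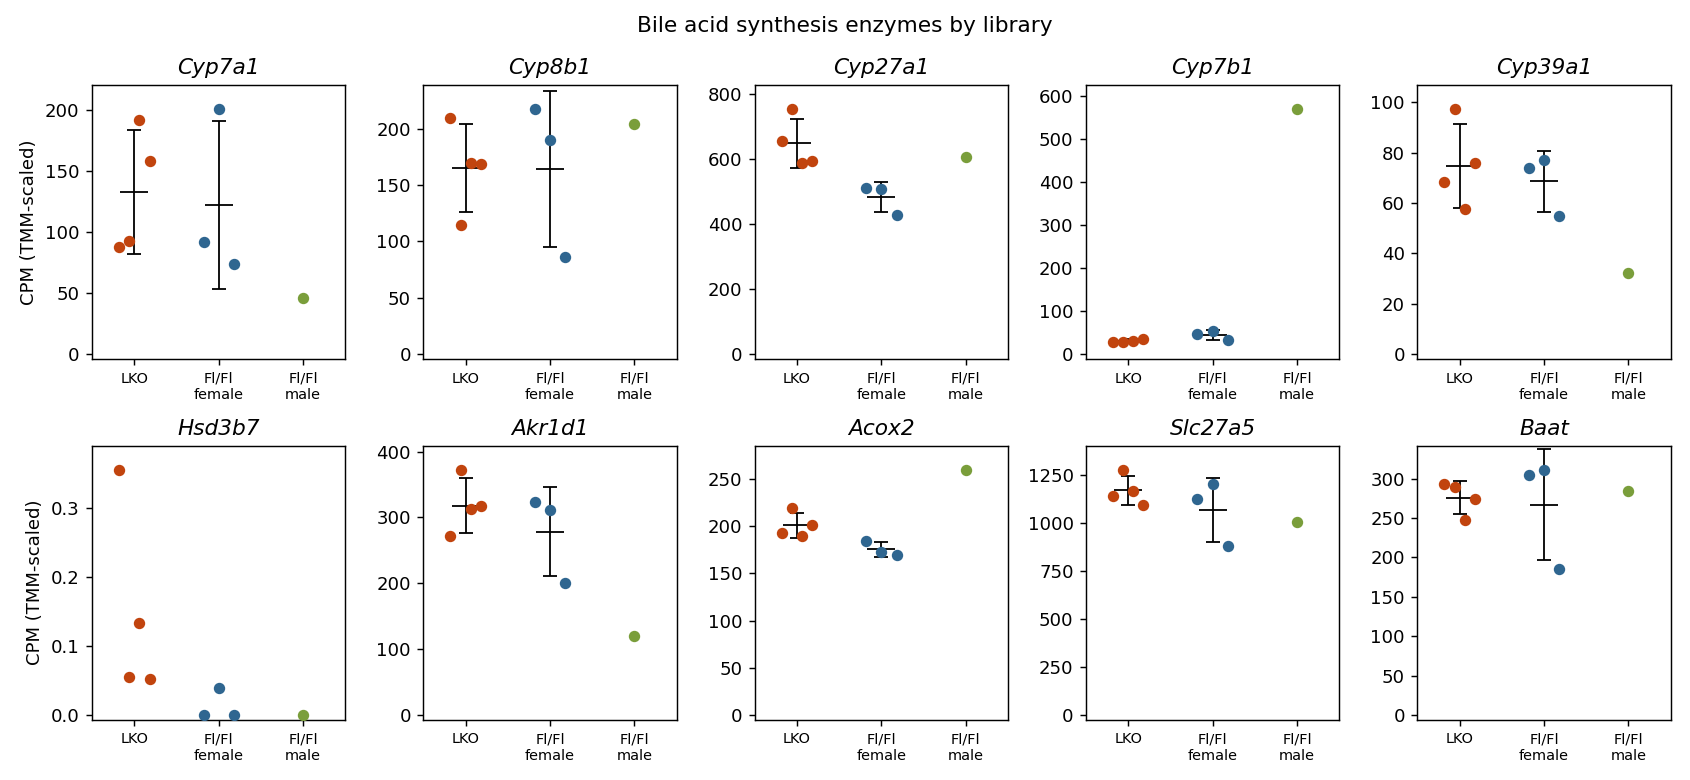
Level of each of the 10 bile acid synthesis enzymes in CPM (vertical axes, each starting at 0) in the 4 LKO, 3 female Fl/Fl and 1 male Fl/Fl livers. Points are libraries, and bars give the group mean and SD of LKO and female Fl/Fl livers, except for Hsd3b7. The LKO and female Fl/Fl points overlap for most enzymes and lie apart for Cyp27a1 and Acox2. They also lie apart for Hsd3b7, which had at most 27 reads in any liver and was not tested. The male point stands far above the others for Cyp7b1, at 568 CPM against at most 54.6 CPM in any female liver.

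Per length, the pathway spanned more than an order of magnitude among the tested enzymes, and the order of the 9 was the same in LKO and female Fl/Fl livers. The deposited FPKM values, which divide the share of reads by the gene's length, were used for levels between genes. Slc27a5, the ligase that activates bile acids with coenzyme A, stood first at a level of 498 ± 31.9 FPKM in LKO livers and 455 ± 69.1 FPKM in female Fl/Fl livers (SD, n = 4 and 3, as for all group means here). Cyp27a1 came next at 309 ± 36.6 and 230 ± 21.5 FPKM in LKO and female Fl/Fl livers. Their ranges did not overlap each other, nor that of Baat, the next enzyme, in either genotype.

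Below these came Baat (147 ± 11.6 FPKM in LKO and 143 ± 37.3 FPKM in female Fl/Fl livers), Akr1d1 (114 ± 14.7 and 99.9 ± 24 FPKM), Cyp8b1 (88.0 ± 20.8 and 87.4 ± 36.6 FPKM) and Acox2 (56.2 ± 3.81 and 49.2 ± 2.07 FPKM). Each of these neighbours overlapped the next one in both genotypes, so their order was within the spread between livers. The rate-limiting enzyme Cyp7a1 was lower per length, at 32.9 ± 12.6 FPKM in LKO livers and 30.3 ± 16.9 FPKM in female Fl/Fl livers. Cyp39a1 lay at 25.4 ± 5.71 and 23.4 ± 4.03 FPKM, and Cyp7b1 at 14.6 ± 1.82 and 21.3 ± 5.24 FPKM. Cyp7a1 and Cyp39a1 overlapped in both genotypes. Acox2 and Cyp7a1, and Cyp39a1 and Cyp7b1, overlapped in female Fl/Fl livers but not in LKO livers. Hsd3b7 was listed at no more than 0.134 FPKM in any liver, but its counts are uncertain, as described with the ring-modifying enzymes, and it was given no place in the order.

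**Figure D2:**
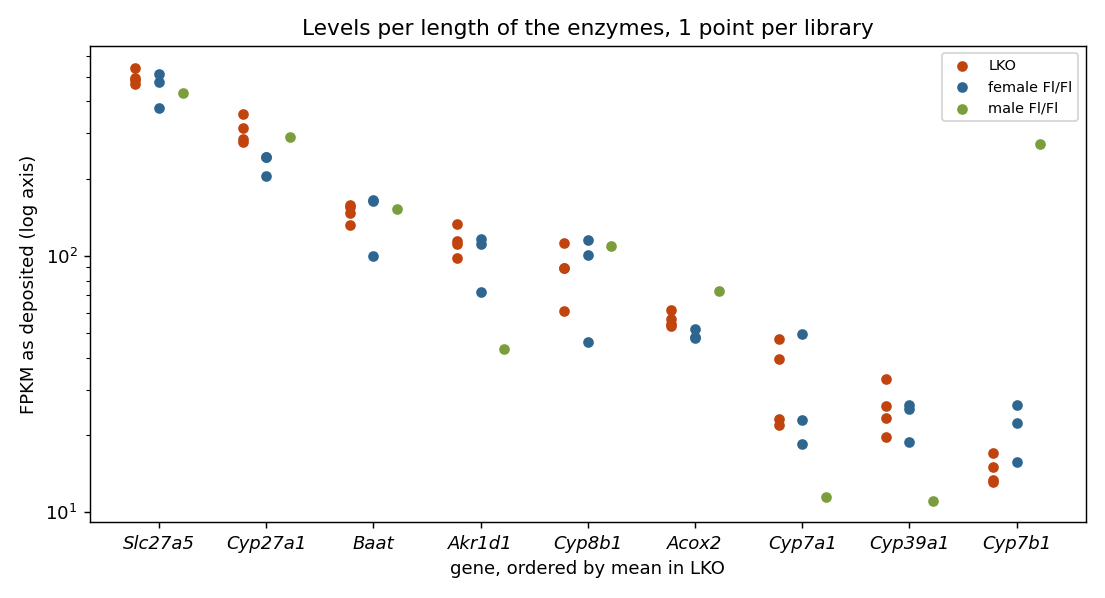
Level of each tested enzyme per gene length (deposited FPKM, log axis) in LKO, female Fl/Fl and male Fl/Fl livers, with points for libraries. Enzymes are ordered by their mean level in LKO livers, and Hsd3b7, whose counts are uncertain, is left out. The order of the 9 tested enzymes is the same in LKO and female Fl/Fl livers, and Cyp7b1, rank 9 in both, has rank 3 in the male liver at 273 FPKM.

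Cyp7a1, which adds the first hydroxyl group of the classic route (ENSMUSG00000028240, mm10 chromosome 4, 6265612 to 6275633, minus strand), was the most variable of the 9 tested enzymes among female livers. It stood at 87.7, 92.6, 192 and 158 CPM in LKO 3, 4, 12 and 13, against 91.9, 200.4 and 73.7 CPM in Fl/Fl 5, 7 and 9. The highest and the lowest of the 7 female livers were both Fl/Fl, and they enclosed all 4 LKO livers. The group means were 133 ± 50.9 CPM in LKO and 122 ± 68.5 CPM in female Fl/Fl livers, a log2 fold change of 0.12 ± 0.46 (SE; edgeR adjusted p = 0.94). The 95% interval of -1.02 to 1.26 log2 leaves room for a change of more than 1 log2 unit in either direction.

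Cyp7a1 is known to follow the daily rhythm of the liver, and the clock genes of these livers differed within both genotypes. A clock term, the mean log2 CPM of Arntl, Npas2 and Clock minus that of Dbp, Nr1d1 and Per3, was 3.28, 2.28, -2.93 and -1.98 in LKO 3, 4, 12 and 13, against 1.91, 1.57 and -1.92 in Fl/Fl 5, 7 and 9. Positive and negative values thus occurred in both genotypes. LKO 12 and 13, with negative values, had the highest Cyp7a1 of the LKO livers, whereas Fl/Fl 9, also with a negative value, had the lowest Cyp7a1 of the female livers. With the clock term in the fit, the Cyp7a1 estimate was -0.02 log2 (adjusted p = 0.99), and the part of collection time in its spread was not tested further. The immediate early gene Fos stood at 4.87 to 12.7 CPM in LKO livers, against 297, 264 and 30.7 CPM in Fl/Fl 5, 7 and 9 and 4.78 CPM in male Fl/Fl 10.

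Cyp8b1 adds the hydroxyl group that makes cholic acid and so sets the ratio of cholic acid to the other primary bile acids (ENSMUSG00000050445, mm10 chromosome 9, 121914356 to 121916305, minus strand). Its levels were 209, 115, 169 and 168 CPM in LKO 3, 4, 12 and 13, against 217, 190 and 85.8 CPM in Fl/Fl 5, 7 and 9. As for Cyp7a1, the female Fl/Fl livers held both extremes and enclosed the LKO livers. The means were 165 ± 38.9 CPM in LKO and 164 ± 69.2 CPM in female Fl/Fl livers, with a log2 fold change of 0.0097 ± 0.35 (SE; 95% interval -0.82 to 0.84, edgeR adjusted p = 0.99).

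The coefficient of variation between livers of one group was 38.4% in LKO and 56.2% in female Fl/Fl livers for Cyp7a1, and 23.5% in LKO and 42.2% in female Fl/Fl livers for Cyp8b1. For Acox2 it was 6.68% in LKO and 4.37% in female Fl/Fl livers. Over the 7 female livers, the highest value was 2.72 times the lowest for Cyp7a1, 2.53 times for Cyp8b1 and 1.30 times for Acox2. The 2 enzymes of the classic route thus varied most, and the peroxisomal oxidase least, of these 3.

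The RefSeq promoter tables (GRCm38.p6) held 5 of the 10 enzymes. Cyp8b1 and Cyp27a1 are shown because the first is the enzyme whose known regulators HNF4A and LRH-1 (Nr5a2) are measured here and the second is the enzyme with the smallest p among the 9. Each run is the 250 bases before the gene's start in RefSeq, which for Cyp8b1 is also the deposited start and for Cyp27a1 lies upstream of it. Capitals mark matches to the motifs CAAAGTCCA (HNF4), NCAAGGNCA (LRH-1) and TATAAA, searched on both strands. The windows are chr9:121916306-121916555 on the minus strand and chr1:74713285-74713534 on the plus strand.
Cyp8b1 promoter: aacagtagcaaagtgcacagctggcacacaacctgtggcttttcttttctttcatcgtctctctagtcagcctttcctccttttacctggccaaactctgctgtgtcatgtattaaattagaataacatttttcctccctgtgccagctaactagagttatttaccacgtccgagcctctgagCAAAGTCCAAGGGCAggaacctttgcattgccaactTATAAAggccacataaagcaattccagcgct
Cyp27a1 promoter: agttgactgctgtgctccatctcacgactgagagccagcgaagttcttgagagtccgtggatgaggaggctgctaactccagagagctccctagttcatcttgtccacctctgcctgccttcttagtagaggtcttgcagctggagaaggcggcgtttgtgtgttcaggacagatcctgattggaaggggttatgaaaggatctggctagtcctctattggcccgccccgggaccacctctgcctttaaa

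In the Cyp8b1 window the HNF4 letters lay at -67 to -59 and the LRH-1 letters at -61 to -53 from that start, so the 2 matches overlapped, and TATAAA lay at -31 to -26. Over all 32851 promoter windows of this length, the HNF4 letters occurred in 0.384%, the LRH-1 letters in 5.51%, TATAAA in 12.4%, and both of the first 2 in 0.0335%. The Cyp27a1 window held none of the 3, nor did those of Akr1d1, Hsd3b7 and Acox2. Hnf4a, the hepatocyte nuclear receptor that binds the first motif, averaged 828 ± 77.5 CPM in LKO and 596 ± 60.5 CPM in female Fl/Fl livers (log2 0.47 ± 0.11, edgeR adjusted p = 0.065). Nr5a2, which encodes LRH-1, averaged 73.9 ± 4.51 CPM in LKO and 95.9 ± 10.9 CPM in female Fl/Fl livers (log2 -0.38 ± 0.10, adjusted p = 0.092). Neither passed the test, and both were named after their values were seen.

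Cyp27a1, which oxidises the sterol side chain and starts the alternative route (ENSMUSG00000026170, mm10 chromosome 1, 74713574 to 74737892, plus strand), had the smallest p of the 9 tested enzymes. It stood at 656, 752, 586 and 594 CPM in LKO 3, 4, 12 and 13, against 510, 508 and 428 CPM in Fl/Fl 5, 7 and 9. Every LKO liver lay above every female Fl/Fl liver, but male Fl/Fl 10, at 605 CPM, lay among the LKO livers. The means of 647 ± 76.3 CPM in LKO and 482 ± 47.1 CPM in female Fl/Fl livers gave a 1.34-fold ratio, or 0.42 ± 0.12 log2 (SE; 95% interval 0.17 to 0.68). The edgeR p was 0.0037 and the adjusted p 0.10, so the difference did not pass the threshold. It passed in 3 of 19 alternatives: DESeq2, a fit of all genes with at least 1 read (adjusted p = 0.028) and a fit with the clock term (adjusted p = 0.043).

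Cyp7b1 hydroxylates the oxysterols that Cyp27a1 makes (ENSMUSG00000039519, mm10 chromosome 3, 18071950 to 18243338, minus strand). Its levels were 27.2, 27.8, 31.4 and 35.4 CPM in LKO 3, 4, 12 and 13, against 46.4, 54.6 and 32.6 CPM in Fl/Fl 5, 7 and 9, and 568 CPM in male Fl/Fl 10. The groups overlapped through LKO 13 and Fl/Fl 9. The means were 30.5 ± 3.78 CPM in LKO and 44.5 ± 11.1 CPM in female Fl/Fl livers, a log2 fold change of -0.55 ± 0.17 (SE; 95% interval -0.92 to -0.18). The edgeR p was 0.0083 and the adjusted p 0.15, so it did not pass.

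This estimate depended on single libraries. Without Fl/Fl 9 it was -0.73 log2 and passed the threshold (adjusted p = 0.0085). Without Fl/Fl 7 it was -0.38 log2, and without both Fl/Fl 5 and Fl/Fl 7 it was -0.11 log2 (adjusted p = 0.87). With no sex term, the male liver entered the Fl/Fl mean and the estimate was -2.53 log2 (adjusted p = 0.62). The authors' deposited table, whose fold change is of LKO over Fl/Fl, also lists Cyp7b1 at -2.53 log2 with no p-value.

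Cyp39a1, which hydroxylates an oxysterol formed mainly in the brain (ENSMUSG00000023963, mm10 chromosome 17, 43667425 to 43751431, plus strand), overlapped widely between genotypes. It stood at 68.2, 97.2, 57.8 and 76.1 CPM in LKO 3, 4, 12 and 13, against 74.0, 77.3 and 54.8 CPM in Fl/Fl 5, 7 and 9. Its log2 fold change was 0.12 ± 0.18 (SE; 95% interval -0.29 to 0.54, edgeR adjusted p = 0.80).

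The second enzyme of each route was set against the first by FPKM ratios per library, with no test. The level of Cyp8b1 was 5.11, 2.65, 1.89 and 2.28 times that of Cyp7a1 in LKO 3, 4, 12 and 13, against 5.05, 2.03 and 2.49 times in Fl/Fl 5, 7 and 9 and 9.51 times in the male liver. These female ranges overlapped. The level of Cyp7b1 was 0.0416, 0.0372, 0.0537 and 0.0598 times that of Cyp27a1 in the same LKO livers, against 0.0912, 0.108 and 0.0764 times in the female Fl/Fl livers and 0.942 times in the male liver. Here all 4 LKO livers lay below all 3 female Fl/Fl livers. Cyp7b1 alone overlapped, but Cyp27a1 already did not overlap on its own, and these enzymes had estimates of opposite sign. The share of such ratios without overlap was not counted.

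**Figure D3:**
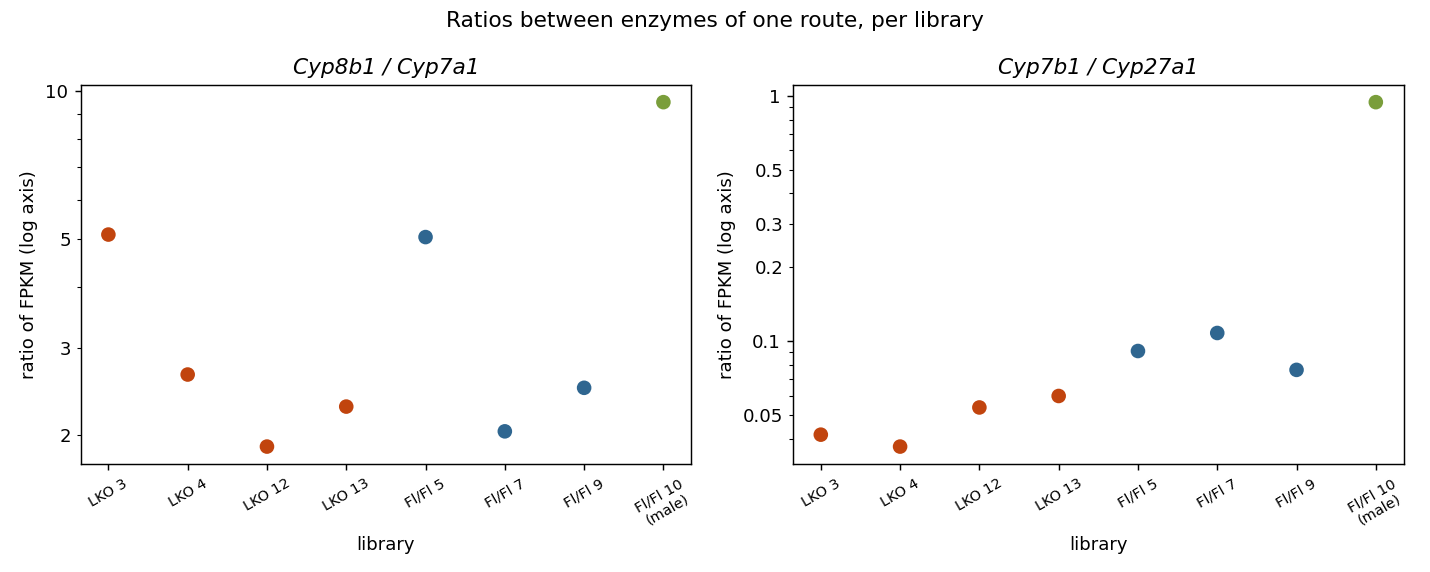
Ratio of FPKM levels within each library for Cyp8b1 over Cyp7a1 and for Cyp7b1 over Cyp27a1 (vertical log axes), in LKO, female Fl/Fl and male Fl/Fl livers, with 1 point per library. The first ratio overlaps between LKO and female Fl/Fl livers. The second lies at 0.0372 to 0.0598 in LKO and 0.0764 to 0.108 in female Fl/Fl livers. Cyp27a1 alone already did not overlap between these groups, and the share of such ratios without overlap was not counted. The male liver is highest in both ratios.

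Akr1d1 and Hsd3b7 modify the sterol ring in both routes. Akr1d1, the reductase that gives the bile acid nucleus its bend (ENSMUSG00000038641, mm10 chromosome 6, 37530173 to 37568815, plus strand), stood at 271, 372, 312 and 317 CPM in LKO 3, 4, 12 and 13, against 324, 311 and 200.2 CPM in Fl/Fl 5, 7 and 9. The groups overlapped, and only Fl/Fl 9 lay below all LKO livers. Means of 318 ± 41.2 CPM in LKO and 278 ± 68.0 CPM in female Fl/Fl livers gave 0.19 ± 0.17 log2 (SE; 95% interval -0.19 to 0.57, edgeR adjusted p = 0.63).

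Hsd3b7, the dehydrogenase that acts on the ring right after the first hydroxylation (ENSMUSG00000042289, mm10 chromosome 7, 127800604 to 127803802, plus strand), was nearly without reads. It had 27, 4, 10 and 4 reads in LKO 3, 4, 12 and 13, against 0, 3 and 0 reads in Fl/Fl 5, 7 and 9 and 0 in male Fl/Fl 10. Every LKO liver had more reads than every female Fl/Fl liver, 27 of the 45 LKO reads came from LKO 3, and no Fl/Fl liver exceeded 3 reads. The CPM means were 0.149 ± 0.143 in LKO and 0.0128 ± 0.0222 in female Fl/Fl livers. With all 35 ways of assigning the genotypes to the 7 female livers, an exact two-sided permutation p for the difference of means was 0.11. The smallest p this test can give is 0.029. No other assignment gave as large a difference with LKO higher, and the others counted in this p had the opposite sign. The permutation p therefore does not show an overlap of the groups. In the edgeR fit of all genes with at least 1 read, the Hsd3b7 estimate was 3.37 ± 1.23 log2 (SE; adjusted p = 0.21). The authors' deposited table lists 3.92 log2 for LKO over Fl/Fl, with an unadjusted p of 0.0033 from the authors' own test. All of these values rest on 0 to 27 reads per liver.

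The exons of Hsd3b7 overlap those of other genes, and whether this lowered its counts was not tested. In GENCODE M21, 62.0% of the 2769 exonic bases of Hsd3b7 lay in exons of the readthrough gene Gm49388 on the same strand (chromosome 7, 127785608 to 127803802), and 99.2% lay in exons of another gene when both strands were counted. For the other 9 enzymes the share was 0.0%. Of 29 listed protein-coding genes with at least 95% of their exonic bases so covered, 27 (93.1%) had a mean under 10 reads, against 17.4% of 16686 other protein-coding genes. Hsd3b7 itself, with a mean of 6.0 reads, was among both the 29 and the 27. On the same strand alone, Hsd3b7 lay below that cut at 62.0%. There 20 genes reached 95%, and 100% of them had a mean under 10 reads, against 17.4% of 16695 others. Whether reads were counted by strand, or kept where genes overlap, is not known here, so the Hsd3b7 counts are uncertain and are not read as its level in liver.

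Acox2, Slc27a5 and Baat act on the side chain. Acox2, the peroxisomal oxidase that starts side-chain shortening (ENSMUSG00000021751, mm10 chromosome 14, 8225511 to 8259353, minus strand), stood at 192, 219.6, 190 and 201 CPM in LKO 3, 4, 12 and 13, against 184, 173 and 170 CPM in Fl/Fl 5, 7 and 9. The groups did not overlap. The means were close, at 201 ± 13.4 CPM in LKO and 175 ± 7.67 CPM in female Fl/Fl livers (log2 0.20 ± 0.087, SE; 95% interval 0.0035 to 0.39). The edgeR p was 0.047 and the adjusted p 0.30, so it did not pass.

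Slc27a5 activates bile acids with coenzyme A before conjugation (ENSMUSG00000030382, mm10 chromosome 7, 12988346 to 12998192, minus strand). It stood at 1142, 1275, 1166 and 1094 CPM in LKO 3, 4, 12 and 13, against 1123, 1203 and 882 CPM in Fl/Fl 5, 7 and 9, and the groups overlapped. The log2 fold change was 0.13 ± 0.12 (SE; 95% interval -0.13 to 0.39, edgeR adjusted p = 0.64). Baat, which joins the activated bile acid to its amino acid (ENSMUSG00000039653, mm10 chromosome 4, 49489422 to 49506557, minus strand), stood at 293, 289, 247 and 274 CPM in the same LKO livers, against 305, 311 and 185 CPM in the female Fl/Fl livers. Its log2 fold change was 0.046 ± 0.17 (SE; 95% interval -0.32 to 0.42, edgeR adjusted p = 0.93).

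**Figure D4:**
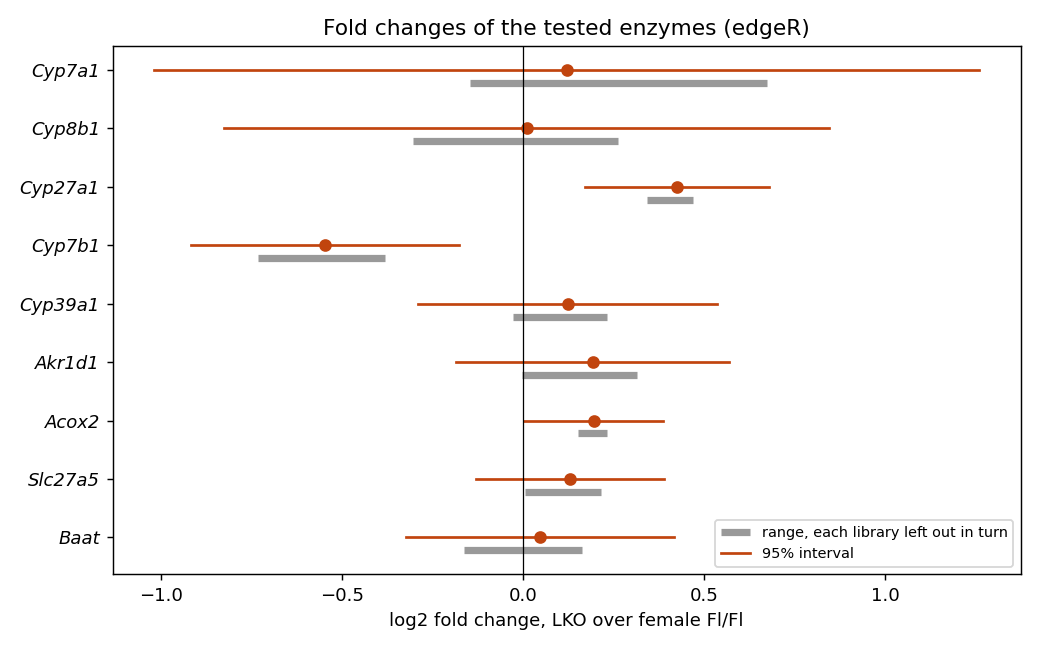
Log2 fold change of each tested enzyme with its 95% interval for LKO over female Fl/Fl livers. Grey bars give the range of the estimate with each library left out in turn. The intervals of Cyp27a1, Cyp7b1 and Acox2 exclude 0 before adjustment.

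The enzymes were low together in one control liver. Fl/Fl 9 had the lowest CPM of the 7 female livers for 8 of the 9 tested enzymes, the exception being Cyp7b1, which was lowest in LKO 3. Among the 3615 genes with a mean of at least that of the lowest tested enzyme, 24% were lowest there. In percent of each enzyme's mean over the female livers, the median of the 9 was 101, 113, 102 and 103% in LKO 3, 4, 12 and 13, against 103, 107 and 74.2% in Fl/Fl 5, 7 and 9. The same median over the 3615 genes was 96.9% in Fl/Fl 9 and 98.3 to 102% in the other female livers. Cyp8b1 stood at 52.1% and Cyp7a1 at 57.5% of their female means in Fl/Fl 9.

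Summed over all 10 enzymes, the reads made up 0.295, 0.313, 0.295 and 0.292% of LKO 3, 4, 12 and 13, against 0.289, 0.308 and 0.217% of Fl/Fl 5, 7 and 9 and 0.307% of male Fl/Fl 10. Without Fl/Fl 9 as a control the estimates of Cyp7a1, Cyp8b1, Cyp39a1, Akr1d1 and Baat turned negative, at -0.15, -0.30, -0.020, -0.0020 and -0.16 log2. The signs of Cyp7a1, Cyp8b1 and Cyp39a1 also turned without single other libraries. With Fl/Fl 9 as the only female control, after Fl/Fl 5 and 7 were left out, the estimates were 0.84 log2 for Cyp7a1, 0.94 for Cyp8b1, 0.44 for Cyp39a1, 0.66 for Akr1d1, 0.56 for Baat and 0.40 for Slc27a5, with edgeR adjusted p of 0.21 to 0.69.

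In Fl/Fl 9 the summed hepatocyte markers were the highest of all libraries, at 148200 CPM, with 5 of 12 lowest and 5 of 12 highest among the 7 female livers. Its sums of 12 pericentral and 12 periportal hepatocyte genes were the lowest of all libraries, at 11720 and 14900 CPM. In the other livers these sums ranged over 12930 to 16360 CPM for the pericentral and 18490 to 25500 CPM for the periportal genes in LKO livers, and up to 15120 and 19440 CPM in female Fl/Fl livers. Its sums of 10 Kupffer cell, 10 endothelial and 10 stellate cell markers were the highest of the female livers, at 549, 507 and 456 CPM. Its cholangiocyte sum was 326 CPM, mostly from Aqp1 (164.6 CPM) and Cdh1 (94.8 CPM), which is also on the periportal list. Krt19, Epcam, Spp1 and Sox9 were lower there than in Fl/Fl 5 and 7. Of the 11 tested cholangiocyte markers, 1 was lowest and 3 were highest there among the 7 female livers. No marker on these lists was at 0 in Fl/Fl 9. The part of cell composition in the low enzyme levels was not tested.

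**Figure D5:**
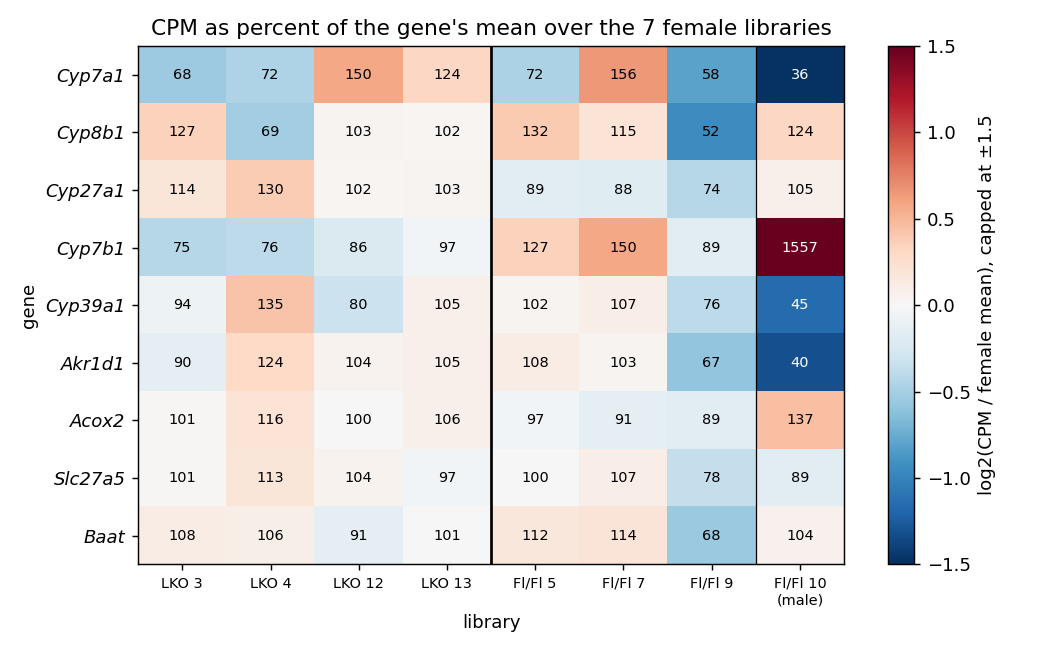
Level of each tested enzyme in each library relative to its mean over the 7 female livers (log2 colour scale, values printed in percent), with LKO libraries left of the Fl/Fl libraries. The column of Fl/Fl 9 is below the female mean for every tested enzyme, at 52.1% for Cyp8b1 and 57.5% for Cyp7a1, and Cyp7b1 stands at 1557% in male Fl/Fl 10.

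The male Fl/Fl liver differed from the female Fl/Fl livers at 3 of the 9 enzymes, 2 higher and 1 lower, where 5.49% of all tested genes passed (3.14% higher and 2.36% lower in the male). Sex cannot be told apart from that 1 library, which the fit assumes to vary like the others. Cyp7b1, whose expression in mouse liver is known to be higher in males, was 12.8-fold higher, at 568 CPM in the male liver and 44.5 ± 11.1 CPM in female Fl/Fl livers (log2 3.67 ± 0.23, SE; edgeR adjusted p = 3.1e-05). Acox2 was also higher, at 259 CPM in the male and 175 ± 7.67 CPM in the female Fl/Fl livers (log2 0.57 ± 0.13, adjusted p = 0.030). Akr1d1 was lower, at 120.3 CPM in the male and 278 ± 68.0 CPM in the female Fl/Fl livers (log2 -1.21 ± 0.27, adjusted p = 0.036).

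The other 6 did not pass in the male contrast, although Cyp39a1 did without Fl/Fl 9 (-1.21 log2, edgeR adjusted p = 0.031). Cyp7a1 was at 46.0 CPM in the male liver and Cyp39a1 at 32.4 CPM, each below all 7 female livers (log2 -1.41 ± 0.77 and -1.08 ± 0.30 against female Fl/Fl; edgeR adjusted p = 0.34 and 0.068). Cyp8b1, Cyp27a1, Slc27a5 and Baat stood at 204, 605, 1007 and 284 CPM in the male liver, within the range of the 7 female livers. The Akr1d1 and Acox2 calls were lost when the 4 Fl/Fl libraries were fitted alone (adjusted p = 0.11 and 0.10) or when Fl/Fl 5 or Fl/Fl 7 was left out, whereas Cyp7b1 kept its call in all 5 alternatives.

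Among 10 male-biased liver genes, 6 rose and none fell in the male liver, and among 10 female-biased genes 8 fell and none rose. Between LKO and female Fl/Fl livers, edgeR called none of either list. In each, 1 of 10 had an unadjusted p under 0.05, where the share over all tested genes was 16.1%. The medians were -0.50 log2 for the male-biased and 0.29 log2 for the female-biased list. Estimates were negative for 9 of 10 male-biased and positive for 7 of 10 female-biased genes, where 49.5% of all tested genes were positive. LKO 4 was the lowest of the 7 female livers for 6 of the 10 male-biased genes. The summed level of the male-biased list was 476 to 879.6 CPM in LKO livers, 838 to 1002 CPM in female Fl/Fl livers and 8221 CPM in the male liver.

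The genes that differed least from Cyp7b1 across the 8 libraries, by the root mean square difference of log2 CPM centred per gene, were C6 (0.288 log2), Gstp1 (0.324 log2) and Cyp2d9 (0.345 log2), where Cyp7b1 itself varied by 1.36 log2 around its mean. All 3 stood far higher in the male than in any female liver, at 504 CPM for C6, 2675 CPM for Gstp1 and 1549 CPM for Cyp2d9. This follows from the choice by likeness, because Cyp7b1 itself was at 568 CPM in the male and at most 54.6 CPM in any female liver. It also rests on 1 male library. For Cyp7a1 the nearest were Nqo1 (0.378 log2), Ifit1 (0.384 log2) and Cyp2c55 (0.388 log2), against its own variation of 0.688 log2. For Cyp8b1 they were Rps28 (0.269 log2), Ndufb9 (0.278 log2) and Mrpl52 (0.281 log2), against 0.444 log2. Candidates were the 7720 genes with a mean of at least 10 CPM.

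A few genes around the pathway passed the test. Another 22 tested genes covered further steps of bile acid synthesis and modification, sterol supply, side-chain oxidation and electron transfer. Their median was 0.058 log2. Of these, edgeR called 1 higher in LKO and none lower, where 1.02% of all tested genes were called higher. This was Por, the reductase that hands electrons to microsomal P450 enzymes such as Cyp7a1, Cyp8b1, Cyp7b1 and Cyp39a1. Por stood at 476, 681, 548 and 613 CPM in LKO 3, 4, 12 and 13, against 322, 359 and 388 CPM in Fl/Fl 5, 7 and 9 and 427 CPM in the male liver. The groups did not overlap (log2 0.70 ± 0.13, edgeR adjusted p = 0.031). The Por call was lost without LKO 4, 12 or 13 or Fl/Fl 5 or 7, each left out alone, with estimates of 0.62 to 0.73 log2 and adjusted p of 0.056 to 0.17. Acaa1b, a peroxisomal thiolase, was next by p, at 987 ± 153 CPM in LKO and 703 ± 73.6 CPM in female Fl/Fl livers (log2 0.49 ± 0.13, adjusted p = 0.10).

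Of 23 regulators of bile acid synthesis, 2 rose in LKO livers and none fell, with a median of 0.12 log2, where 1.02% of all tested genes were called higher and 0.396% lower. Before adjustment, 10 of the 23 had a p under 0.05, and 8 did not overlap between the groups, where the shares over all tested genes were 16.1% and 15.1%. Foxo1, a forkhead factor restrained by insulin, averaged 113 ± 12.7 CPM in LKO and 59.8 ± 3.77 CPM in female Fl/Fl livers (log2 0.92 ± 0.11, edgeR adjusted p = 0.0086). Nr1i2, the pregnane X receptor, which senses bile acids and drugs, averaged 116 ± 12.4 CPM in LKO and 70.2 ± 4.17 CPM in female Fl/Fl livers (log2 0.72 ± 0.10, adjusted p = 0.013). Without Fl/Fl 5 both calls were lost, with estimates of 0.87 log2 for Foxo1 (adjusted p = 0.065) and 0.76 log2 for Nr1i2 (adjusted p = 0.070). The Nr1i2 call was lost without Fl/Fl 7 as well, at 0.67 log2 (adjusted p = 0.067). The feedback genes did not pass. Nr0b2 averaged 31.4 ± 10.2 CPM in LKO and 27.8 ± 4.93 CPM in female Fl/Fl livers (adjusted p = 0.79), and Nr1h4 averaged 98.4 ± 13.5 CPM in LKO and 95.3 ± 3.49 CPM in female Fl/Fl livers (adjusted p = 0.89). Fgfr4 and Klb differed by -0.039 and -0.11 log2 (adjusted p = 0.91 and 0.80).

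Of 14 tested bile acid transporters, 1 rose and none fell, with a median of 0.056 log2, beside shares of 1.02% higher and 0.396% lower over all tested genes. Slc10a2, the sodium-dependent bile acid importer known from ileum and bile duct cells, stood at 47.1, 56.7, 42.3 and 45.5 CPM in LKO 3, 4, 12 and 13, against 20.1, 25.3 and 18.1 CPM in Fl/Fl 5, 7 and 9 and 71.8 CPM in the male liver. Its groups did not overlap (log2 1.18 ± 0.14, edgeR adjusted p = 0.0086), and without Fl/Fl 5 the call was lost at 1.14 log2 (adjusted p = 0.065). Atp8b1, the canalicular lipid flippase, was next by p, at 55.4 ± 2.12 CPM in LKO and 65.5 ± 7.65 CPM in female Fl/Fl livers (adjusted p = 0.25).

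Genes of other liver states and cell types were counted in the same edgeR contrast. In it, 1.41% of all tested genes passed and 16.1% had an unadjusted p under 0.05. Over all tested genes, 15.1% did not overlap between the groups and 49.5% were positive. None of 18 clock genes, 12 pericentral genes, 12 hepatocyte, 11 cholangiocyte, 10 Kupffer cell, 10 endothelial and 10 stellate cell markers passed, with 2, 2, 3, 2, 1, 1 and 1 at an unadjusted p under 0.05. The 12 periportal genes had a median of 0.24 log2, 11 of them positive, with 6 at an unadjusted p under 0.05 and 6 without overlap between the groups. Of the 12, 1 passed, Sds, a serine dehydratase, at 323 ± 42.4 CPM in LKO and 171 ± 1.58 CPM in female Fl/Fl livers (adjusted p = 0.0088, and 0.065 without Fl/Fl 5). DESeq2 was not counted over these lists.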

How the data were processed

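Per the labels' protocols, total RNA of 8 mouse livers was extracted with a column kit and made into libraries with the NEBNext Ultra RNA kit. The submitters' processing notes name fastp, STAR, HTSeq, featureCounts, DESeq, DESeq2, edgeR and mm10, without versions or roles. The strand setting and annotation release were not given in the sources used here. Per gene, the authors deposited whole-number read counts, FPKM values made from counts and gene length, and a normalised signal that equals the count divided by 1 size factor per library. The deposited table also holds the authors' log2 fold change with its p-value. No column was left unmapped and every row named a gene.

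The tests used edgeR 4.0.16 under R 4.3.3 (filterByExpr by genotype, TMM, estimateDisp and glmQLFit robust, terms for genotype and sex). A total of 16420 genes were tested at an adjusted p of 0.05, with a biological coefficient of variation of 20.4%. The standard error of a log2 value is its size over the root of F. The closest replicates, Fl/Fl 5 and 7, differed by a chi-square of 35.1 per degree of freedom, so no library was counted as a copy. Depth limits touched Hsd3b7 only, and the 3-read floor covers counting error only. Of the gene IDs, 27089 were in GENCODE M21, 97.2% of them with the same coordinates as deposited.

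The members and lists were chosen with earlier results of these data known. The text names all 10 enzymes; of the other pathway lists the genes past the threshold and the 2 with the smallest p; the 3 genes most like Cyp7a1, Cyp8b1 and Cyp7b1; and marker lists by their sums. Hnf4a, Nr5a2, the feedback genes and the clock genes were named in addition. Alternatives were DESeq2 size factors, a minimum of 1 read in all, a minimum of 10 reads in 4 libraries or more, upper quartile scaling, DESeq2 1.42.0, limma 3.58.1 voom, limma trend on log2(FPKM + 1) from the deposited values, no sex term, female libraries alone, a clock term, no Fl/Fl 5 and 7, each replicate left out, and an adjusted p of 0.1. The procedure was tested on simulated data.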

Additional observations from a re-analysis of the deposited data

Results flagged for a closer look

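Values far from the rest of a genotype were looked for in 20 combinations of enzyme and genotype with Dixon's criterion, which chance meets in about 1 of 20 groups. The 3 that met it were all among the Fl/Fl libraries. Cyp7b1 was at 568 CPM in male Fl/Fl 10, and Acox2 was at 259.4 CPM in the same library, where the other Fl/Fl livers reached 54.6 and 184 CPM. Hsd3b7 was at 0.0385 CPM in Fl/Fl 7, which is 3 reads, where the other Fl/Fl livers had 0 reads. When all other values are 0, any read meets the criterion, so the rate of 1 in 20 does not hold there. The Cyp7b1 and Acox2 flags set the lone male against the female Fl/Fl livers.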

How the results depend on the processing

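Of 171 refits of single enzymes between LKO and female Fl/Fl livers, 152 kept the direction and the side of the threshold, 14 turned the sign of an estimate that had not passed, and 5 brought Cyp27a1 or Cyp7b1 past it. The count of enzymes called was 0. It became 1 with all genes of at least 1 read, 2 with DESeq2, 1 with the clock term, and 0 to 1 when single libraries were left out (1 without Fl/Fl 9). The count over all tested genes was 232. It became 462 with all genes of at least 1 read, 885 with DESeq2, 112 with limma on FPKM, 1 with no sex term, 357 with the clock term, 26 without Fl/Fl 5 and 7, 531 at an adjusted p of 0.1, and 4 (without Fl/Fl 5) to 727 (without Fl/Fl 9) with single libraries left out. The sign turned for Cyp7a1 with the clock term (-0.024 log2) and for Cyp8b1 with upper quartile scaling (-0.0049 log2) and with no sex term (-0.076 log2). Without Fl/Fl 5 and 7 the median of the 9 enzymes was 0.56 log2, against 0.12. With single libraries left out, estimates ran over -0.15 to 0.67 log2 for Cyp7a1, -0.30 to 0.26 for Cyp8b1, -0.027 to 0.23 for Cyp39a1, -0.0020 to 0.32 for Akr1d1 and -0.16 to 0.16 for Baat, and in the male contrast over -0.20 to 0.012 for Slc27a5 and -0.11 to 0.22 for Baat. With the 4 Fl/Fl libraries alone, the male contrast gave -1.21 log2 for Akr1d1 and 0.57 log2 for Acox2, neither past the threshold. The lone male library is assumed to vary like the others. For Por, Foxo1, Nr1i2, Slc10a2 and Sds the same alternatives were added after seeing the data: with no sex term all 5 lost their call, without Fl/Fl 5 and 7 all but Slc10a2 did, and Por lost it with limma on FPKM. The cause of these shifts was not tested. No paired analysis was possible because the LKO and Fl/Fl libraries share no replicate numbers. Depth does not limit the 9 tested enzymes, which had at least 2015 reads in every library.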
